A study of Mus musculus with 10 samples.

Results

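The comparison described here is that of Mr1-/- and Mr1+/+ mouse peritoneum after 6 weeks of intraperitoneal 4.25% peritoneal dialysis (PD) fluid. It takes 5 of the series' 10 RNA-seq libraries, which were chosen by genotype and treatment in the labels: 2 of Mr1-/- and 3 of Mr1+/+ mice, both with PD fluid. The other 5 libraries come from mice of the same genotypes given PBS in the same volume, 3 of Mr1+/+ and 2 of Mr1-/-. All mice were C57BL/6 males (C57BL/6J in the series title), the age is not stated, and the labels give Mr1-/- with no driver or cell type restriction. Nothing in the labels links libraries to individual animals, so a p-value here reflects the spread among libraries and that spread may be technical. The comparison asks how Mr1-/- and Mr1+/+ peritoneum exposed to dialysis fluid differ in these libraries.

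MR1 is a molecule related to MHC class I that varies little between individuals. It shows small metabolites of riboflavin synthesis by microbes to MAIT cells (mucosal-associated invariant T cells), which do not develop without it. PD fluid is a glucose-rich, hyperosmotic solution, and long exposure to it is known for fibrosis, new vessels and inflammation in the peritoneal membrane, a mesothelial layer over connective tissue with vessels, immune cells and neighbouring fat. Peritoneal fat also holds lymphoid clusters rich in B cells.

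Library totals were 14145635 to 16335799 counts over all 10 libraries. The 2 Mr1-/- PD fluid libraries were nearly identical, with a chi-square per gene of 1.74 where 1 is Poisson counting noise, against 18.6 to 47.0 for the 3 pairs of Mr1+/+ PD fluid libraries. They were therefore counted as 1 sample, so that n is 1 for Mr1-/- and 3 for Mr1+/+, and the spread of the lone sample is assumed to be like that of the other groups. Levels are in CPM, the counts of a gene scaled to a fixed library total, with TMM-scaled library sizes, and in this text a level is given for both Mr1-/- libraries although they count as 1 sample. Mr1+/+ PD fluid replicate 1 stood apart from replicates 2 and 3. Its summed CPM of pancreatic acinar genes was 206 against 4580 and 5501. In the Mr1-/- PD fluid libraries that sum was 7138 and 7297, and 15 of 17 acinar genes lay above the Mr1+/+ range. Markers of another organ thus differed between the 2 groups compared. In the Mr1-/- PBS libraries the sum was 923 and 384 CPM, so the acinar markers did not follow the genotype across treatments. Their part in the results was not tested. Mr1+/+ PBS replicate 3, which enters the PBS and interaction results, had acinar and intestinal sums of 35694 and 2779 CPM, against 668 to 710 and 22.9 to 26.6 CPM in the other Mr1+/+ PBS libraries. In Mr1+/+ PD fluid replicate 1 the summed CPM of neutrophil markers was 72.8, against 195 and 216 in replicates 2 and 3, and that of erythroid genes 240 against 84.9 and 111. The mesothelial marker Msln, which encodes mesothelin, was present in all 5 libraries (13.1 to 51.9 CPM), as were the adipocyte gene Adipoq (553 to 1643 CPM) and the B cell gene Cd79a (219 to 444 CPM), so the tissue held fat and lymphoid cells beside mesothelium. In bulk tissue fewer cells of a type and less RNA per cell cannot be told apart.

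Of 15385 genes tested, 2 differed between the genotypes under PD fluid in edgeR's quasi-likelihood test at a Benjamini-Hochberg adjusted p under 0.05, which is 0.013% of them: Mr1 fell and Alb rose (0.0065% in each direction). Apart from these 2 genes, the Mr1-/- tissue lay below the Mr1+/+ tissue in fat cell, matrix, endothelial, macrophage and mitochondrial lipid-burning genes and above it in B cell, T cell and cell division genes, but none of those genes passed that test. The count differed between fits. DESeq2 gave some genes no adjusted p-value, Ccl2 among them, and these stand as not called in its counts and shares. A fit of only the 2 PD fluid groups called 561 of 14662 genes (3.83%), 329 higher (2.24%) and 232 lower (1.58%), and DESeq2 called 1031 genes (6.7%), 439 higher (2.85%) and 592 lower (3.85%). Of the 561 genes, 421 were also called by DESeq2. Before adjustment, 1571 genes were higher (10.2%) and 1361 lower (8.85%) with a p under 0.05. Both Mr1-/- libraries lay above all 3 Mr1+/+ libraries in 4765 genes (31%) and below all 3 in 4544 (29.5%), and 849 (5.52%) and 677 (4.4%) of the tested genes did so with at least a 2-fold difference. Over all tested genes the median log2 fold change was 0.00, and 50% were above 0. These shares are the background for the counts within gene groups below.

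**Figure D1:**
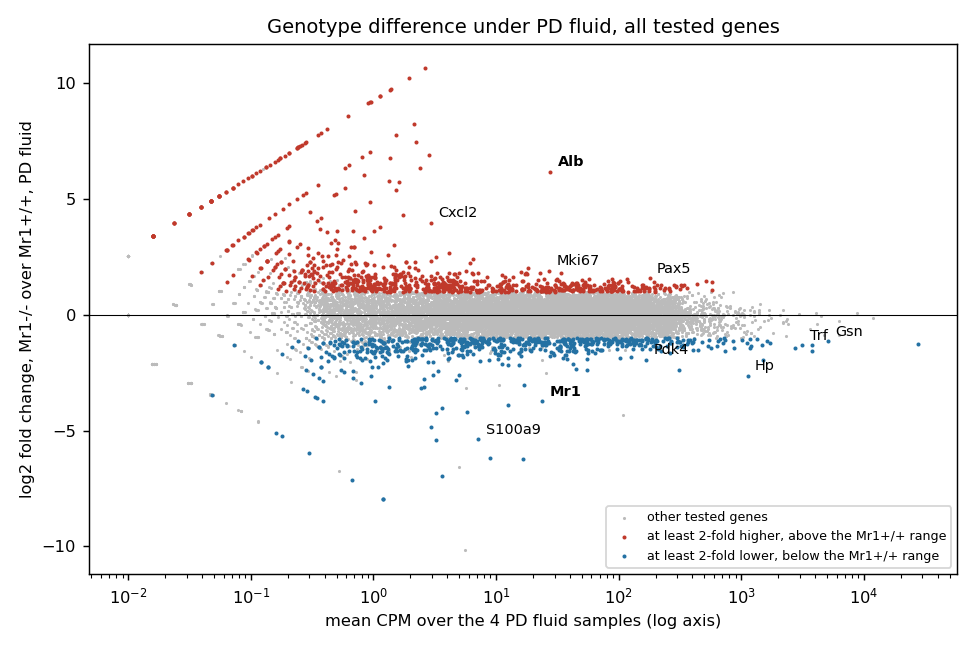
Log2 fold change (Mr1-/- over Mr1+/+, both with PD fluid) of each tested gene against its mean CPM over the 4 PD fluid samples on a log axis. The 849 red genes were at least 2-fold higher and above the range of the 3 Mr1+/+ libraries, the 677 blue genes at least 2-fold lower and below it; the 2 names in bold, Mr1 and Alb, are those called by edgeR.

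Mr1 itself (mm10 chr1:155127277-155146814, minus strand) was at 32.5, 29.9 and 30.1 CPM in the 3 Mr1+/+ libraries with PD fluid and at 2.41 and 2.25 CPM in the Mr1-/- libraries. The groups did not overlap, and the labels of all 5 libraries fit their Mr1 level. The fall was 3.72 on the log2 scale (SE 0.28, edgeR adjusted p = 0.0130), a 13.2-fold difference, and 39 and 35 Mr1 counts remained in the Mr1-/- libraries. Without Mr1+/+ PD fluid replicate 2 or 3 neither Mr1 (edgeR adjusted p = 0.0688 and 0.144) nor Alb (0.0688 and 0.384) passed the threshold, with log2 fold changes of -3.76 and -3.73 for Mr1 and 5.89 and 6.15 for Alb. Counts per gene symbol do not show from which exons those reads came. Under PBS the log2 difference was -3.37 (SE 0.22), and the difference between the 2 treatments was not called (interaction -0.35, SE 0.31).

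The other called gene was Alb, which encodes albumin and is expressed chiefly in the liver. It stood at 2.17, 0.81 and 1.36 CPM in the Mr1+/+ PD fluid libraries and at 105 and 108 CPM in the Mr1-/- ones. The rise was 6.19 on the log2 scale (SE 0.45, edgeR adjusted p = 0.0165), or 73.1-fold. In the Mr1-/- PBS libraries Alb was at 105 and 64.1 CPM, so the high level was in all 4 Mr1-/- libraries, with or without PD fluid. Of 16 liver genes listed, 15 were tested, and 13 of these lay above the Mr1+/+ PD fluid range, with a median log2 fold change of 6.03 over the 15 (5.86 with genes at 0 in all 3 Mr1+/+ libraries set to their bound). The fibrinogen chain Fgb had 0 counts in the Mr1+/+ PD fluid libraries and 143 in the Mr1-/- ones. It was at least 69.9-fold higher against a floor of 3 counts over the Mr1+/+ group, and Ttr, which encodes the thyroid hormone carrier transthyretin, and Cyp3a11, a drug-metabolising cytochrome, were at least 84.1-fold and 58.2-fold higher by the same floor. Fga and Fgg, the other fibrinogen chains, had 193 and 78 counts in Mr1-/- and 1 count each in Mr1+/+. Genes with so few counts in the Mr1+/+ PD fluid libraries met the count filter only through groups where they are higher. The count of 13 and the list median therefore rest in part on that filter. The other 2 tested genes of the list lay below the range: the iron carrier transferrin gene Trf, at 3360, 3758 and 4004 CPM against 1482 and 1510, and the ethanol-oxidising cytochrome Cyp2e1, at 3337, 4854 and 4986 CPM against 1784 and 1796. Both are also expressed in fat. Mr1+/+ PBS replicate 3, the library with high acinar and intestinal sums, held Ttr at 2.95 CPM and Cyp3a11 at 7.23 CPM. Those 2 transcripts were thus not seen in Mr1-/- libraries alone. Alb was at 0.49 CPM in that library, against at least 64.1 CPM in each Mr1-/- library. The source of these reads was not tested.

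Of the lists whose members mostly shared a sign, the liver and cell division genes have well-known promoter motifs, so the promoters of 2 members of each are shown here from RefSeq (GRCm38.p6, which is mm10), as the 250 bases before the annotated start, written 5′ to 3′ on the gene's strand. Capitals mark GTTAAT or its reverse complement ATTAAC, an arm of the site of the hepatocyte factor HNF1, in Alb (chr5:90460620-90460869, plus strand) and Fgb (chr3:83049864-83050113, minus strand). In Top2a (chr11:99024190-99024439, minus strand) and Mki67 (chr7:135716380-135716629, minus strand) they mark CCAAT or its reverse complement ATTGG, the site of NF-Y, a factor known for promoters of mitotic genes.
Alb: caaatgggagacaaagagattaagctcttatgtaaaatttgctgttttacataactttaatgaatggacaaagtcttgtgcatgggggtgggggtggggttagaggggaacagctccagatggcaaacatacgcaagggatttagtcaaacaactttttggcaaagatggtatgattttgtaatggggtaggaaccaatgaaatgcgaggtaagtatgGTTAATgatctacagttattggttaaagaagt
Fgb: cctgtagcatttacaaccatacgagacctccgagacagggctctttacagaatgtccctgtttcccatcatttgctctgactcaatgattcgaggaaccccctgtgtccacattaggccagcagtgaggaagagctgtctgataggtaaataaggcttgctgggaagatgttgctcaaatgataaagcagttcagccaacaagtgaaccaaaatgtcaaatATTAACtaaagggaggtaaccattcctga
Top2a: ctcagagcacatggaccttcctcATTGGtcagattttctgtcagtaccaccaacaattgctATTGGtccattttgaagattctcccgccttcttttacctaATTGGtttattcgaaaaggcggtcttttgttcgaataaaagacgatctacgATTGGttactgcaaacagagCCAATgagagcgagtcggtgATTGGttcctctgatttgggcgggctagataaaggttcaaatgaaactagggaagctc
Mki67: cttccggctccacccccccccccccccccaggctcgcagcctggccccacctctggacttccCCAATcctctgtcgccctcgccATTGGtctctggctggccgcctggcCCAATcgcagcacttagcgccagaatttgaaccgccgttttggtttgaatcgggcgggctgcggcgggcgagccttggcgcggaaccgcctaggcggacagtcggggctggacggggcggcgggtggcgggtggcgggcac

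Both motifs were searched on both strands and separately, so a base may count for both. GTTAAT was in 5 of 12 liver gene promoters (41.7%), in 4.31% of 12115 promoters of tested genes and in 6.52% of all 27025 promoters in the table. CCAAT was in 19 of 21 promoters of cell cycle genes (90.5%), in 35.9% of the promoters of tested genes and in 34.5% of all. A match describes these letters only, not a bound site.

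B cell genes were higher in Mr1-/- peritoneum. All 14 tested markers had positive log2 fold changes, with a median of 0.93, 13 of them lay above the Mr1+/+ range and 12 had an unadjusted p under 0.05. Their summed level was 1716 to 1923 CPM in Mr1+/+ and 3511 and 3514 CPM in Mr1-/-. Pax5, the transcription factor that fixes B cell identity, was at 134, 130 and 95.0 CPM in Mr1+/+ and at 355 and 364 CPM in Mr1-/-. Both Mr1-/- libraries were thus above every Mr1+/+ library, and close to the 345 and 312 CPM of Mr1-/- PBS. The log2 fold change was 1.58 (SE 0.26, edgeR adjusted p = 0.145). Bach2, a repressor that restrains plasma cell formation, was at 63.0, 72.1 and 44.1 CPM against 175 and 176 (1.55, SE 0.29). Ms4a1, which encodes CD20, lay at 119 to 129 CPM against 275 and 278, and the complement receptor gene Cr2 at 66.2 to 70.8 CPM against 140 and 141. The fit of only the PD fluid groups called 7 of the 14 as higher, among them Pax5 (edgeR adjusted p = 0.00655), Bach2 (0.0141) and Ms4a1 (0.016), where 2.24% of all genes were. Plasma cell genes did not share this: 4 of 9 were positive with a median of -0.0023, which changed sign between settings, and Jchain, the joining chain of secreted antibodies, was at 478, 396 and 493 CPM against 564 and 569.

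T cell markers showed the same direction with smaller differences. All 17 tested were positive, with a median of 0.52, 15 lay above the range and 6 had an unadjusted p under 0.05. Cd28, the costimulatory receptor, was at 53.6, 38.6 and 36.0 CPM in Mr1+/+ and at 82.3 and 75.4 CPM in Mr1-/- (0.88, SE 0.25, edgeR adjusted p = 0.157), without overlap. Lef1, a transcription factor of naive T cells, was at 89.4, 56.5 and 60.8 CPM against 125 and 125 (0.86, SE 0.33). Cd8a, by contrast, had 139 CPM in Mr1+/+ replicate 1 and 140 and 141 CPM in Mr1-/-, so replicate 1 nearly reached the Mr1-/- level. Without that replicate the median of the list was 0.73. Kcna3, a potassium channel gene of lymphocytes, was at 3.16, 4.16 and 2.14 CPM against 15.5 and 14.2 (2.24, SE 0.37), and Gpr174, a lymphocyte receptor for lysophosphatidylserine, at 18.5, 12.9 and 10.2 CPM against 48.3 and 49.3 (1.81, SE 0.37). NK and cytotoxic lymphocyte genes gave no common direction, with 7 of 12 positive and a median of 0.09 that changed sign between settings.

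Of 21 genes listed for MAIT and other innate-like T cells, 18 were tested, 7 with positive and 11 with negative values and a median of -0.19. Of the 18, 6 lay above the Mr1+/+ range and 6 below it. Outside that range, 1 was at least 2-fold higher and 2 were at least 2-fold lower. Zbtb16, which programs innate-like T cells, was found at 43.0, 213 and 145 CPM in Mr1+/+ and at 48.5 and 44.8 CPM in Mr1-/-, so the groups overlapped at replicate 1. Zbtb16 is also a target of glucocorticoids and so is not specific to MAIT cells. Ccr6, a chemokine receptor of MAIT and B cells, stood at 28.3, 37.2 and 26.4 CPM against 64.9 and 67.5 (1.11, SE 0.28). The kinase gene Blk, also one of the B cell markers above, was at 67.1 to 83.9 CPM against 123 and 128. Il17a and Ifng, cytokine genes of innate-like T cells, had too few counts to be tested: 3 and 0 counts over the Mr1+/+ PD fluid libraries and 8 and 2 (Il17a) and 1 and 0 (Ifng) in the Mr1-/- ones.

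**Figure D2:**
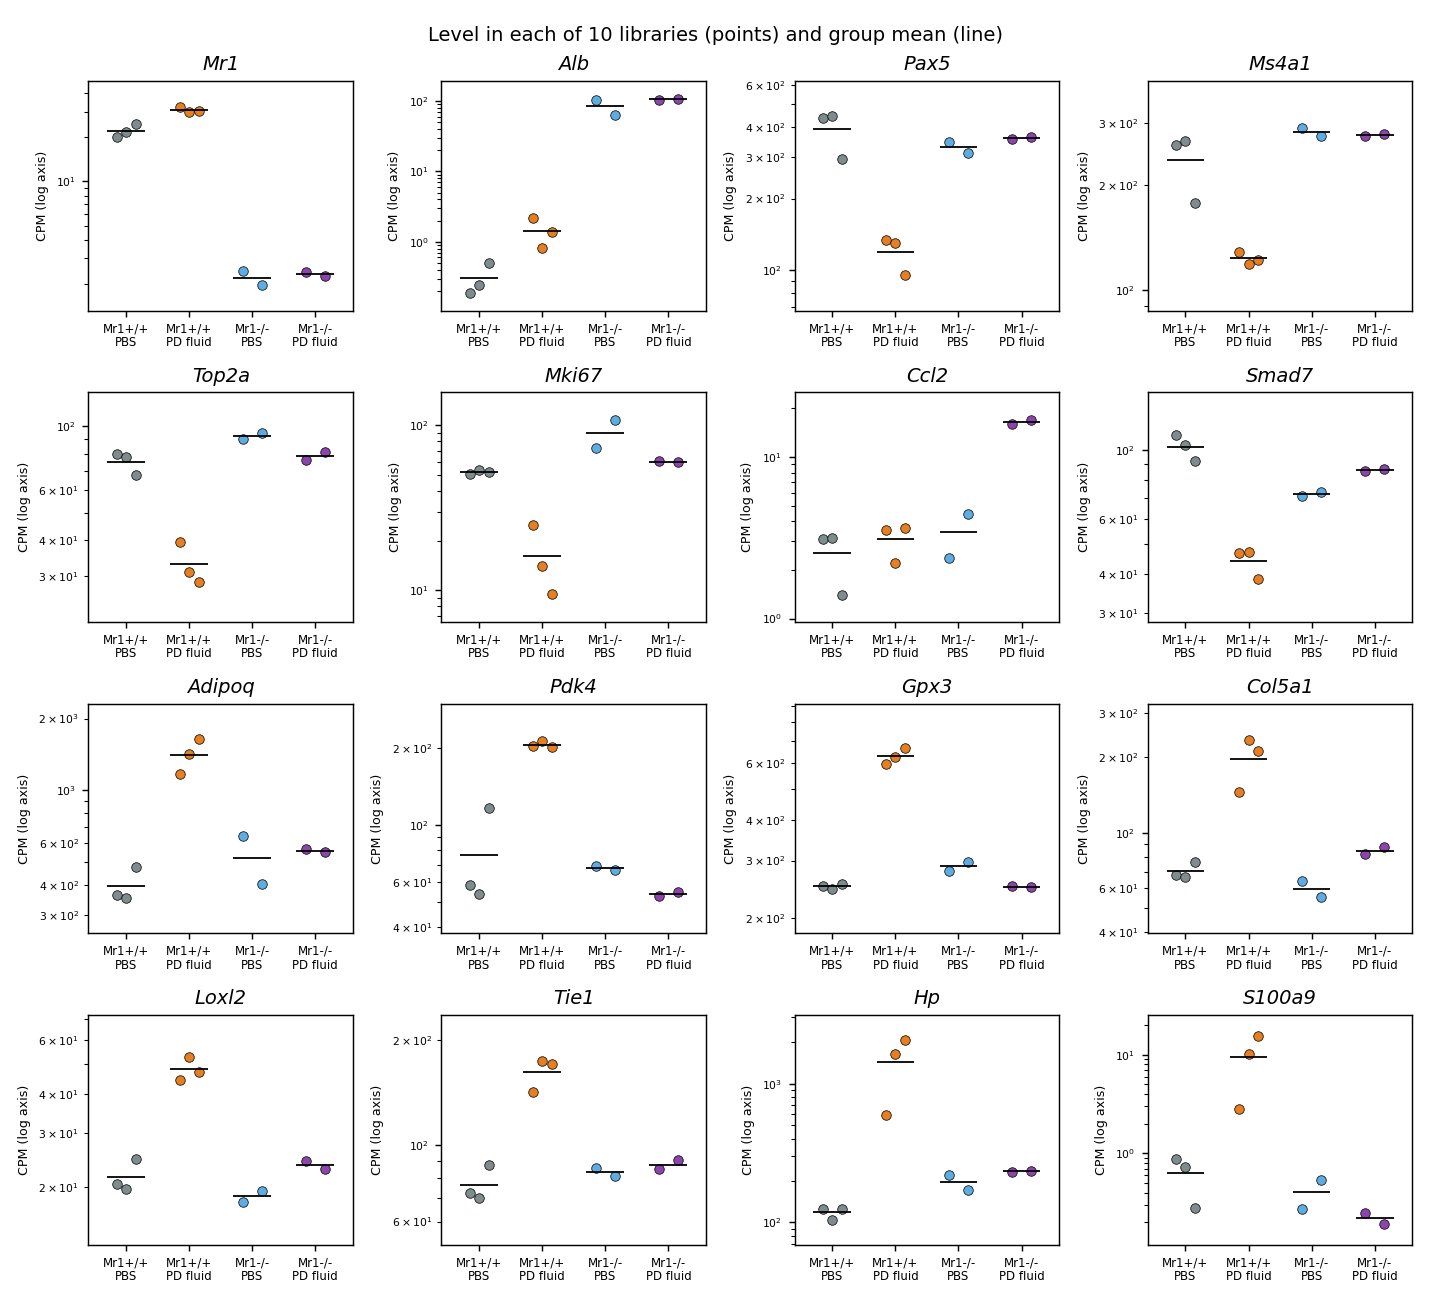
CPM (log axis) of 16 genes in each of the 10 libraries, as points, with the group mean as a line. In Pax5, Ms4a1, Top2a, Mki67 and Smad7 the 3 Mr1+/+ PD fluid libraries were the lowest of all; in Adipoq, Pdk4, Gpx3, Col5a1, Loxl2, Tie1, Hp and S100a9 they were the highest of all, and the Mr1-/- PD fluid libraries lay nearer to the PBS libraries.

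Cell division genes were higher in Mr1-/- tissue as well. All 25 were positive with a median of 0.68, 23 lay above the Mr1+/+ range and 13 had an unadjusted p under 0.05. Top2a, the topoisomerase that untangles replicated DNA, was at 39.4, 31.1 and 28.7 CPM in Mr1+/+ and at 76.0 and 81.3 CPM in Mr1-/- (1.25, SE 0.20, edgeR adjusted p = 0.145). Mki67, the gene of the proliferation antigen Ki-67, was at 24.9, 14 and 9.46 CPM against 60.5 and 59.8 (1.90, SE 0.45). Neither gene overlapped between the groups, though for Top2a the rule for genes with the smallest p required this. The motor gene Kif11 (1.19, SE 0.28) and the spindle checkpoint kinase gene Bub1 (1.55, SE 0.40) lay higher too, while Cdk1, the mitotic kinase, was at 8.87 to 11.1 CPM against 11.8 and 11.3, a log2 fold change of 0.23. The smallest log2 fold changes of the list were those of Mcm3, of the replicative helicase, at 0.17 and of the polymerase clamp gene Pcna at 0.22. The fit of only the PD fluid groups called 1 of the 25, Top2a (edgeR adjusted p = 0.0223). These genes and the B cell list were higher in the same libraries, and whether dividing B cells account for their level was not tested.

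The genes with the smallest p among the higher ones, beside those named, were of varied function. Fam111a, which encodes a nuclear protease that acts at replication forks, was at 43.3, 37.7 and 36.0 CPM in Mr1+/+ and at 95.6 and 89.2 CPM in Mr1-/- (1.25, SE 0.17). Arid3b, a DNA-binding factor, was at 34.8, 38.5 and 33.5 CPM against 80.8 and 78.6 (1.16, SE 0.19), the ion exchanger gene Slc9a7 at 10.8, 13.4 and 9.59 CPM against 31.0 and 31.0 (1.46, SE 0.25), and the T-box factor Tbx6 at 5.02, 5.97 and 4.92 CPM against 14.4 and 14.6 (1.45, SE 0.25). In all 4 the groups were apart by more than their range, but lying outside the Mr1+/+ range was a condition for naming them. Eif2s3y, a translation factor gene on the Y chromosome, was at 26.8, 24.5 and 29.2 CPM against 62.9 and 63.8 (1.24, SE 0.21). The other Y-linked genes tested, Kdm5d, Ddx3y and Uty, were positive at 0.84, 0.82 and 0.69, and all 4 also had positive values under PBS (0.20 to 1.16). Tmem255a, a membrane protein gene, was at 15.9, 6.78 and 6.16 CPM against 34.3 and 34.8 (1.85, SE 0.63). The near-identical genes 9930111J21Rik1 and 9930111J21Rik2, of the interferon-inducible GTPase family, had 1.88 and 1.79, but reads may have been split between these copies.

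Inflammatory chemokines and cytokines had no common direction, with 10 positive and 9 negative members and a median of 0.03 that changed sign between settings. The extremes were Cxcl2, Ccl2 and Ccl7 on the higher side and Pf4 (-1.79), Ccl8 (-1.38) and Ccl4 (-1.07) on the lower side, and Cxcl5 was at 1.63 and Ccl3 at -0.76. Ccl2, the main monocyte attractant, was at 3.53, 2.21 and 3.63 CPM in Mr1+/+ and at 16.1 and 17.1 CPM in Mr1-/- with PD fluid, and at 2.38 and 4.47 CPM in Mr1-/- with PBS. The Mr1-/- PD fluid libraries were thus the highest of all 10. The log2 fold change was 2.40 (SE 0.51, edgeR adjusted p = 0.145). Ccl7, a neighbour of Ccl2 with similar receptors, was at 1.49, 1.14 and 1.75 CPM against 6.99 and 7.79 (2.33, SE 0.47), and Cxcl2, which draws neutrophils, at 1.05, 0.40 and 0.39 CPM against 9.66 and 10.1 (3.99, SE 0.92). The fit of both PD fluid groups alone called Ccl2 at an edgeR adjusted p of 0.00715, the neighbouring Ccl7 at 0.0223 and Cxcl2 at 0.00381. Cxcl1 was at 25.7 CPM in Mr1+/+ replicate 1, 2.55 and 2.53 in replicates 2 and 3, and 39.2 and 44.5 in Mr1-/-. Il6, Il1b and Tnf, the classical cytokines of acute inflammation, had log2 fold changes of 0.89, -0.31 and 0.03 at no more than 0.90, 3.50 and 9.59 CPM.

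Genes induced within minutes of a stimulus were among those on the higher side in Mr1-/-, with 14 of 17 immediate early genes positive, a median of 0.47 and 9 at an unadjusted p under 0.05. Fosb was at 5.15, 3.76 and 3.30 CPM against 14.1 and 13.3 (1.75, SE 0.44), and Egr1 at 91.3, 45.5 and 45.6 CPM against 144 and 147 (1.26, SE 0.39). Both Mr1-/- libraries exceeded every Mr1+/+ library. These genes also respond to handling of tissue, and their part in the chemokine values was not tested. The labels do not give the hour of tissue collection. Of 17 clock genes, 12 were positive with a median of 0.72: Ciart was at 4.09, 2.42 and 2.85 CPM against 9.66 and 9.79 (1.64, SE 0.37), and Per3 at 44.9, 16.1 and 13 CPM against 61.3 and 62.9 (1.33, SE 0.64). Arntl, the activator that runs opposite in phase to the period genes, was on the other side, with 24.4, 40.2 and 37.4 CPM against 20.2 and 21.8 (-0.69, SE 0.29), and Npas2 likewise, with 4.15, 25.4 and 19.3 CPM against 0.87 and 1.29. Ciart, Per3 and Arntl had the same signs under PBS (1.24, 1.16 and -0.69).

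**Figure D3:**
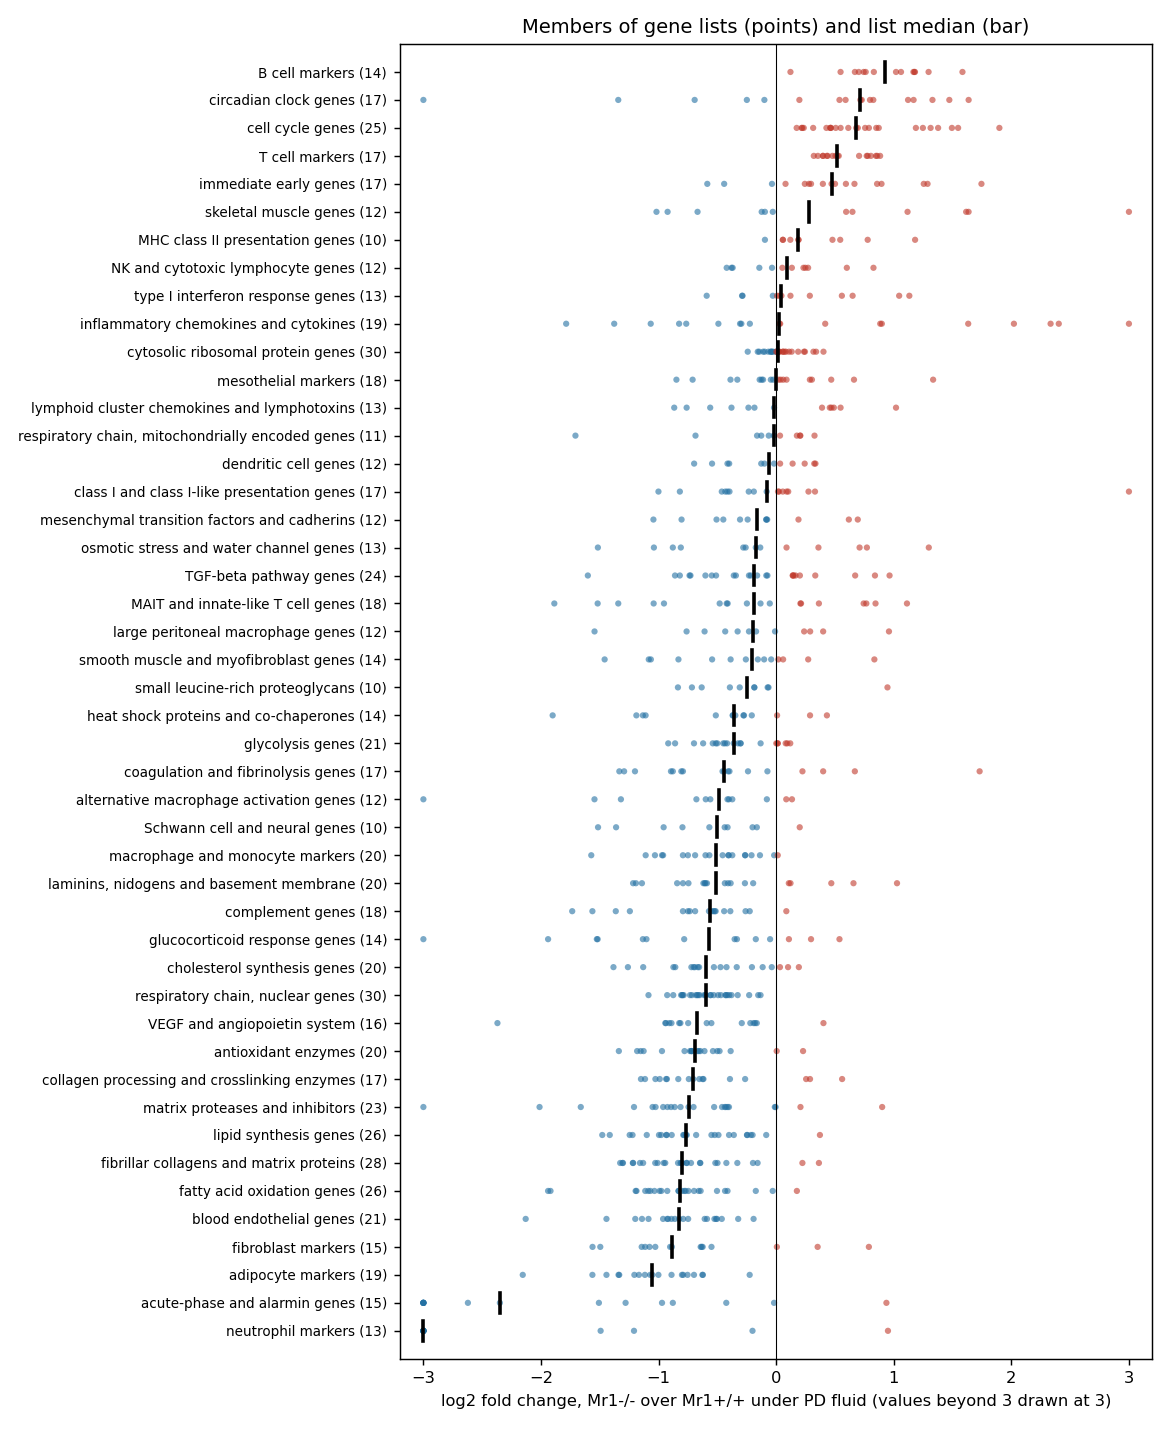
Log2 fold change (Mr1-/- over Mr1+/+ under PD fluid) of each tested member of the 46 gene lists with at least 10 tested members, without the liver and other foreign-organ lists, as points, with the list median as a bar and the number of tested members in brackets; values beyond 3 in either direction are drawn at 3. B cell, T cell and cell cycle members all lie above 0, while adipocyte, blood endothelial and nuclear respiratory chain members all lie below 0.

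Fat cell genes were lower in Mr1-/- tissue. All 19 markers were negative, with a median of -1.05, 18 lay below the Mr1+/+ range and 12 had an unadjusted p under 0.05. Their sum was 22245 to 31465 CPM in Mr1+/+ and 12746 and 12815 CPM in Mr1-/-, a 2.12-fold difference of the means. Adipoq, the gene of the fat cell hormone adiponectin, was at 1176, 1415 and 1643 CPM in Mr1+/+ and at 566 and 553 CPM in Mr1-/- (-1.33, SE 0.34, edgeR adjusted p = 0.149). Adrb3, the receptor through which noradrenaline starts lipolysis, was at 292, 411 and 425 CPM against 146 and 151 (-1.34, SE 0.29), and Cebpa, a master factor of adipogenesis, at 370, 474 and 536 CPM against 195 and 204 (-1.21, SE 0.26). None of these overlapped. Lep, the gene of leptin, was the exception, with 415 CPM in Mr1+/+ replicate 1, 158 and 169 in replicates 2 and 3, and 164 and 156 in Mr1-/-. Adig, a small adipogenesis gene, was at 49.7, 65.9 and 87.6 CPM against 17.3 and 18.8 (-1.91, SE 0.35). The fit of only the PD fluid groups called 5 of the 19 as lower, against 1.58% of all genes.

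Genes for making and burning lipid followed the fat cell list. Of 26 lipid synthesis genes, 25 were negative with a median of -0.76, and 13 had an unadjusted p under 0.05. The desaturase Scd1 was at 17226, 42105 and 37516 CPM in Mr1+/+ and at 13636 and 13588 CPM in Mr1-/- (-1.25, SE 0.49), while fatty acid synthase, Fasn, at 2623, 8078 and 5423 CPM against 2895 and 2913, overlapped at replicate 1. Agpat2, which makes the precursor of triglycerides, was at 168, 254 and 267 CPM against 96.6 and 100.3 (-1.22, SE 0.28). Of 20 cholesterol synthesis genes, 17 were negative (median -0.59), among them Insig1, the sterol-sensing brake of the pathway, at 174, 264 and 278 CPM against 90.2 and 92.7 (-1.38, SE 0.29).

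Fatty acid oxidation showed 25 of 26 tested genes on the negative side, with a median of -0.82, 21 below the range and 17 at an unadjusted p under 0.05. Pdk4, the kinase that turns mitochondria from glucose to fat, was at 203, 213 and 202 CPM in Mr1+/+ and at 52.7 and 54.6 CPM in Mr1-/-. The gap was far wider than the range of the Mr1+/+ libraries (-1.94, SE 0.39, edgeR adjusted p = 0.145). Ucp3, a mitochondrial carrier induced with fat oxidation, was at 33.6, 56.8 and 50.02 CPM against 12.4 and 12.4 (-1.92, SE 0.46), and Eci1, an isomerase of unsaturated fats, at 102, 120 and 139 CPM against 54.5 and 51.1 (-1.19, SE 0.26). Only Cpt1a, the gate of mitochondrial fat entry, was positive, at 0.18. The fit of only the PD fluid groups called 7 of the 26 as lower, with Pdk4 at an adjusted p of 0.00234. All 30 nuclear genes of the respiratory chain were negative (median -0.60, 27 below the range), whereas 11 genes encoded in mitochondria had a median of -0.02 that changed sign between settings. Angptl4, a lipase inhibitor induced by fasting, was at 215, 468 and 474 CPM against 73.6 and 75.5 (-2.37, SE 0.62).

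Antioxidant enzymes lay lower with 18 of 20 members negative (median -0.69, 18 below the range, 12 at an unadjusted p under 0.05). Gpx3, the secreted glutathione peroxidase, had the smallest p among the lower genes after Mr1, with 597, 623 and 668 CPM in Mr1+/+ and 250 and 248 CPM in Mr1-/- (-1.34, SE 0.19, edgeR adjusted p = 0.145). Sod3, the extracellular superoxide dismutase, was at 183, 223 and 233 CPM against 93.4 and 94.2 (-1.18, SE 0.22). Neither gene's groups overlapped, which the rule for genes with the smallest p required. Car5b, a mitochondrial carbonic anhydrase, was at 209, 244 and 247 CPM against 107 and 111 (-1.10, SE 0.18). Other lower genes with the smallest p were Cytl1, a small secreted protein gene, at 24.9, 23.3 and 24.9 CPM against 8.54 and 11.3, Srpx, a sushi-repeat protein gene, at 38.9, 42.2 and 45.9 CPM against 18.1 and 17.6, Eif4ebp1, a brake on translation initiation, at 106, 135 and 163 CPM against 51.8 and 53.0, and Chchd6, of the mitochondrial inner membrane, at 18.9, 22.6 and 27.4 CPM against 7.06 and 8.63. Their log2 fold changes were -1.3, -1.24, -1.36 and -1.55.

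Matrix genes were mostly lower in Mr1-/- peritoneum. Of 28 fibrillar collagens and matrix proteins, 26 were negative, with a median of -0.80, 24 below the Mr1+/+ range and 18 at an unadjusted p under 0.05. Their sum was 7647 to 12218 CPM in Mr1+/+ and 5573 and 5576 CPM in Mr1-/-. Col1a1, the main chain of type I collagen, was at 413, 621 and 600 CPM in Mr1+/+ and at 309 and 318 CPM in Mr1-/- (-0.80, SE 0.29, edgeR adjusted p = 0.199), and Col3a1 at 1086, 2025 and 2083 CPM against 699 and 701 (-1.31, SE 0.49). Replicate 1 was the lowest Mr1+/+ library for both, yet above Mr1-/-. Col5a1, a chain that starts collagen fibrils, was at 146, 234 and 213 CPM against 82.5 and 87.4 (-1.22, SE 0.28). Fibronectin, Fn1, overlapped, with 702, 1536 and 1011 CPM against 802 and 813. The fit of only the PD fluid groups called 4 of the 28 as lower, Col5a1 among them (edgeR adjusted p = 0.0406).

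Enzymes that process collagen had 14 of 17 members negative (median -0.70). Loxl2, a lysyl oxidase that crosslinks collagen, was at 44.6, 52.7 and 47.3 CPM in Mr1+/+ and at 24.3 and 22.9 CPM in Mr1-/- (-1.03, SE 0.22, edgeR adjusted p = 0.145), and Serpinh1, the collagen chaperone, at 217, 421 and 428 CPM against 164 and 164 (-1.12, SE 0.38). Of 23 matrix proteases and inhibitors 21 were negative (median -0.75), with the protease Htra1 at 229, 196 and 231 CPM against 114 and 117 (-0.92, SE 0.22) and the inhibitor Timp1 at 3.16, 11.1 and 13 CPM against 2.91 and 1.55. Of 20 basement membrane genes 15 were negative (median -0.51), and the type IV collagen chain Col4a1 was at 894, 1583 and 1448 CPM against 560 and 567 (-1.22, SE 0.33). Small leucine-rich proteoglycans had smaller values, with 9 of 10 negative and a median of -0.25.

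Fibroblast markers shared that direction, with 12 of 15 negative, a median of -0.89, 12 below the range and 9 at an unadjusted p under 0.05. Clec3b, the gene of tetranectin, was at 134, 183 and 235 CPM in Mr1+/+ and at 64.3 and 66.2 CPM in Mr1-/- (-1.50, SE 0.38), and Gsn, which encodes the actin-severing protein gelsolin, at 5867, 5843 and 6134 CPM against 2693 and 2691 (-1.14, SE 0.30). Pdgfra, the receptor that marks fibroblasts, was at 158, 160 and 143 CPM against 99.3 and 99.0 (-0.63, SE 0.16). In all 3 the groups did not overlap. Smooth muscle and myofibroblast genes had a median of -0.21 (10 of 14 negative). Acta2, the myofibroblast actin, was at 670, 898 and 983 CPM against 397 and 406 (-1.08, SE 0.53, edgeR adjusted p = 0.318). In Mr1-/- with PBS it was at 432 and 1169 CPM, so the 2 libraries of that group differed more than the genotypes did.

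TGF-beta is the cytokine most tied to peritoneal fibrosis, and its 24 pathway genes were split, with 9 positive and 15 negative and a median of -0.19. Among ligands, Tgfb1 was at 191, 193 and 206 CPM in Mr1+/+ and at 226 and 226 CPM in Mr1-/- (0.20, SE 0.23), and Tgfb3 at 47.0, 54.1 and 61.2 CPM against 31.0 and 33.9 (-0.74, SE 0.34). Ltbp3, which holds latent TGF-beta in the matrix, was at 240, 271 and 263 CPM against 140 and 145 (-0.86, SE 0.19). The receptor gene Tgfbr2 had a log2 fold change of 0.14 (SE 0.20). Inhibitors and repressors of the pathway were split, with Skil at 0.84, Ski at -0.08, Smad6 at -0.34 and Bambi at -0.36 on the log2 scale. Smad7, an inhibitor induced by TGF-beta, was at 46.7, 47.2 and 38.5 CPM against 85.4 and 86.8 (0.96, SE 0.18, edgeR adjusted p = 0.145), and the repressor Tgif1 at 28.8, 31.1 and 30.4 CPM against 48.8 and 47.1 (0.67, SE 0.17). Among target genes, Ccn2, the connective tissue growth factor, was at 30.1, 57.6 and 71.3 CPM against 18.3 and 16.6 (-1.60, SE 0.50). In Smad7, Tgif1, Ltbp3 and Ccn2 the groups did not overlap.

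Vessel genes were lower in Mr1-/- tissue. All 21 blood endothelial genes were negative and below the Mr1+/+ range, with a median of -0.82 and 14 at an unadjusted p under 0.05. The receptor gene Tie1 was at 142, 174 and 171 CPM in Mr1+/+ and at 84.8 and 90.4 CPM in Mr1-/- (-0.89, SE 0.20, edgeR adjusted p = 0.145), and the junction gene Esam at 102, 141 and 152 CPM against 60.4 and 63.7 (-1.09, SE 0.30). The VEGF receptor gene Kdr had the smallest difference of the list, at 202, 210 and 179 CPM against 168 and 177 (-0.19, SE 0.18). Of 16 genes of the VEGF and angiopoietin system 15 were negative (median -0.67). Vegfa, the ligand that drives new vessels, was at 115, 158 and 155 CPM against 99.97 and 94.9 (-0.55, SE 0.30), and Vegfb at 63.9, 83.3 and 99.1 CPM against 43.5 and 43.9 (-0.91, SE 0.25). Lymphatic endothelial genes had a median of -0.22, and Prox1, their defining factor, lay on the other side at 27.8 to 35.6 CPM against 51.1 and 50.04 (0.62, SE 0.28).

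Macrophage and monocyte markers were lower with 19 of 20 negative, a median of -0.51 and 13 below the range, but only 2 at an unadjusted p under 0.05. Adgre1, the gene of F4/80, was at 84.6, 128 and 123 CPM in Mr1+/+ and at 52.4 and 51.1 CPM in Mr1-/- (-1.11, SE 0.47), and the scavenger receptor gene Cd163 at 104, 129 and 107 CPM against 73.8 and 75.7 (-0.60, SE 0.27, edgeR adjusted p = 0.269). In Mr1-/- with PBS Cd163 was at 25.8 and 19.8 CPM, and in Mr1+/+ with PBS at 27.7 to 41.8 CPM, so both PD fluid groups lay above both PBS groups. Of 18 complement genes 17 were negative (median -0.56), with C7 of the membrane attack complex at 107, 264 and 206 CPM against 72.4 and 77.0 and the receptor C5ar1 at 23.2, 40.1 and 40.9 CPM against 16 and 13.3. Genes of large peritoneal macrophages were mixed (4 of 12 positive, median -0.20). Dendritic cell genes had a median of -0.06 that changed sign between settings, and 9 of 10 MHC class II presentation genes were positive (median 0.19), led by H2-Ob, a B cell regulator of peptide loading, at 196, 153 and 145 CPM against 376 and 371 (1.18, SE 0.24).

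Neutrophil and acute-phase genes held the largest differences on the lower side and the widest spread between Mr1+/+ libraries. Of 13 neutrophil markers 12 were negative (median -4.24), and of 15 acute-phase and alarmin genes 14 (median -2.35). These medians rest on genes with few counts in Mr1-/-, some of which entered the test only through the Mr1+/+ libraries where they are high. Under a stricter filter on low counts they were -1.22 and -1.29. S100a9, which encodes a chain of the neutrophil protein calprotectin, was at 2.79, 10.1 and 15.6 CPM in Mr1+/+ and at 0.25 and 0.19 CPM in Mr1-/- (-5.38, SE 1.29, edgeR adjusted p = 0.149). Ngp and Ltf, granule protein genes, were at 3.84, 25.8 and 36.3 CPM and at 2.67, 17.2 and 15.9 CPM in Mr1+/+, and no Mr1-/- library with PD fluid exceeded 0.45 CPM. In all 3 genes replicate 1 was far below replicates 2 and 3. The haptoglobin gene Hp, made by fat and liver in the acute phase, was at 590, 1636 and 2068 CPM against 230 and 235 (-2.62, SE 0.72), Lcn2, an iron-withholding defence protein gene, at 7.63, 26.0 and 31.4 CPM against 2.17 and 3.09 (-3.04, SE 0.84), and Chil3, a chitinase-like gene of macrophages, at 1.55, 9.93 and 11.2 CPM against 0.37 and 0.45. For the serum amyloid gene Saa3 the groups overlapped, with 0.74, 169 and 260 CPM against 6.87 and 7.34. Erythroid genes, which mark blood in the tissue, lay lower in the same comparison (5 of 5 negative, median -1.53, with summed levels of 84.9 to 240 CPM in Mr1+/+ and 50.8 and 52.7 CPM in Mr1-/-), and the part of blood content in the neutrophil values was not tested.

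Mesothelial markers showed no shared direction: 9 of 18 were positive and 9 negative, with a median of -0.0022 that changed sign between settings. Msln was at 51.9, 13.1 and 16.7 CPM in Mr1+/+ and at 30.3 and 24.9 CPM in Mr1-/- (0.02, SE 0.98), so the groups overlapped. Upk3b, a mesothelial uroplakin, was at 184, 62.2 and 60.1 CPM against 142 and 140. For both, replicate 1 was above Mr1-/- and replicates 2 and 3 below it. Aldh1a2, the mesothelial enzyme of retinoic acid synthesis, lay lower at 105, 106 and 107 CPM against 59.5 and 58.4 (-0.85, SE 0.22). Muc16, another marker of the list, lay higher at 10.8, 7.58 and 4.92 CPM against 20.2 and 18.9 (1.33, SE 0.54). Of the 18 markers, 2 lay above the Mr1+/+ range and 3 below it. Cytosolic ribosomal protein genes had a median of 0.02 that changed sign between settings.

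The interaction test asks whether the genotype difference under PD fluid differs from that under PBS. edgeR called 0 of 15385 genes (0%) and DESeq2 472; 2037 genes (13.2%) had a p under 0.05 before adjustment. Under PBS, 2 genes were called (0.013%), again Mr1 and Alb, and 1329 had an unadjusted p under 0.05 (8.64%). Within lists the interaction medians were -1.52 for adipocyte markers, where the PBS median was 0.53, and 1.04 for B cell markers, where it was -0.14. For cell cycle genes the interaction median was 0.72, for blood endothelial genes -0.89 and for matrix genes -0.52. Pax5 had an interaction of 1.74 and Gpx3 of -1.54 on the log2 scale. In Pax5 the Mr1+/+ libraries were at 438, 444 and 293 CPM with PBS against 95.0 to 134 with PD fluid, while those of Mr1-/- were at 345 and 312 CPM against 355 and 364. Gpx3 was at 245 to 254 CPM in Mr1+/+ with PBS, at 278 and 297 in Mr1-/- with PBS and at 250 and 248 in Mr1-/- with PD fluid, so the Mr1+/+ PD fluid libraries were the ones that stood apart.

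**Figure D4:**
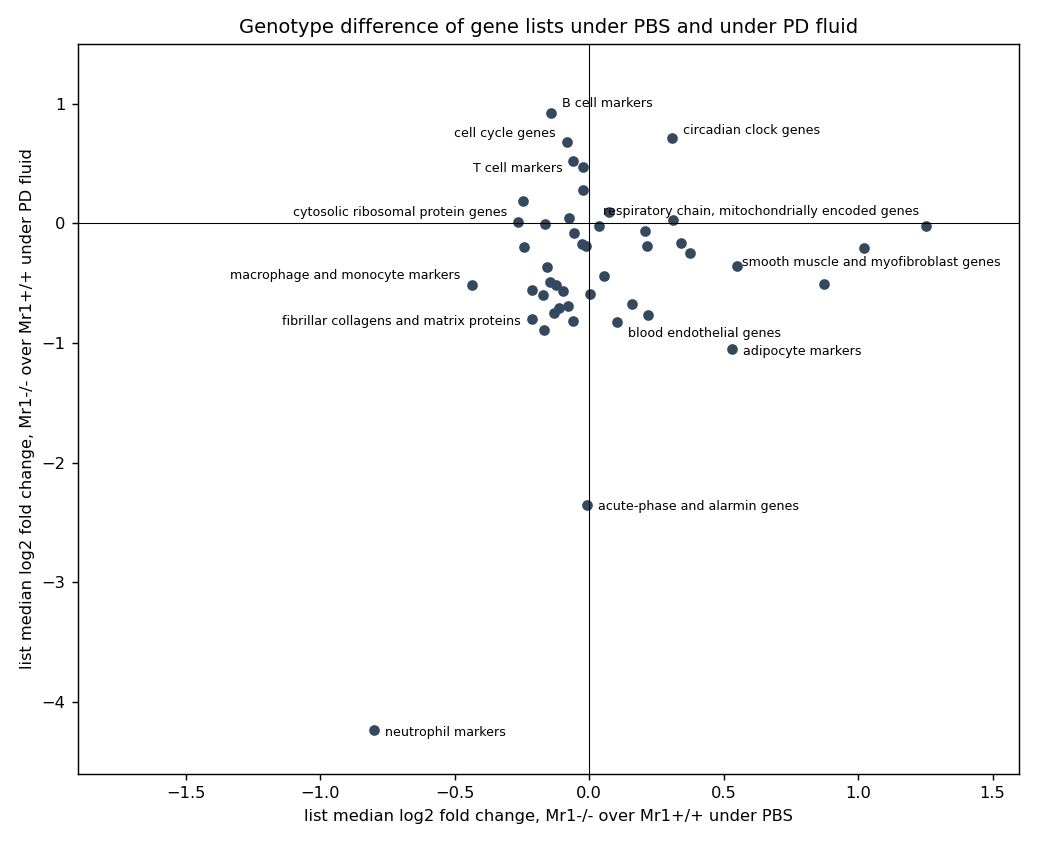
Median log2 fold change of the 46 gene lists with at least 10 tested members, without the liver and other foreign-organ lists (points), Mr1-/- over Mr1+/+, under PBS on the horizontal axis and under PD fluid on the vertical axis; the 2 comparisons use different libraries. Among the lists drawn, neutrophil and acute-phase genes lie lowest under PD fluid, at -4.24 and -2.35 (-1.22 and -1.29 under a stricter count filter), and mitochondrially encoded genes lie farthest right, at 1.25 under PBS and -0.02 under PD fluid.

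The genotype difference also ran with gene length, which was known for 98.4% of the tested genes as the union of exons in GENCODE M21. In the shortest of 5 equal length classes (69 to 2407 bases) the median log2 fold change was -0.24 and 33.7% were positive. In the longest class (7467 to 123179 bases) the median was 0.24 and 68.7% were positive. The classes between them had medians of -0.10, -0.02 and 0.11, in order of length. Under PBS the medians of the classes lay between -0.057 and 0.049. The part of length in the differences described above was not tested. The list medians of cell division and B cell genes lay above that of the longest class. Those of adipocyte, matrix and fatty acid oxidation genes lay below that of the shortest. The lengths of the list members were not compared, so these medians do not decide the part of length.

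**Figure D5:**
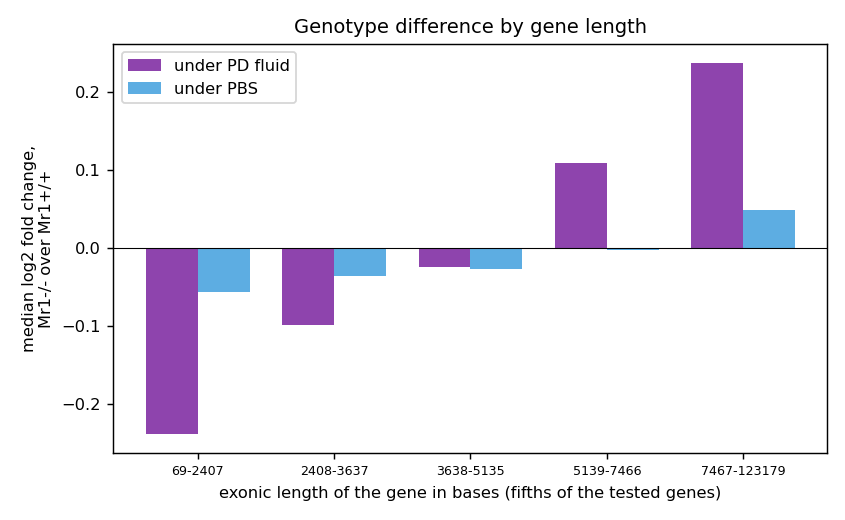
Median log2 fold change (Mr1-/- over Mr1+/+) in 5 equal classes of the tested genes by exonic length in bases, under PD fluid (purple) and PBS (blue). Under PD fluid the median goes from -0.24 in the shortest to 0.24 in the longest class, and under PBS from -0.057 to 0.049.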

How the data were processed

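Bulk RNA-seq of peritoneum gave 10 libraries. The authors deposited 1 table of counts per gene, whole numbers that are not normalized. The submitters' processing notes name mm10 as the genome build. Which aligner, counter and gene models were used is not given in the sources used here. No strand-marking step or molecular identifiers are named either, so near-identical or overlapping genes are uncertain. The 21899 rows gave 21877 symbols after rows with the same symbol were summed. Coordinates and exonic lengths come from GENCODE M21, and 97.0% of the symbols matched. Libraries of Mr1+/+ PBS replicates 1 and 2 (chi-square per gene 2.23) and of the 2 Mr1-/- PD fluid replicates were summed.

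Genes that passed edgeR's filterByExpr were fitted with edgeR 4.0.16 (R 4.3.3) as 4 group means over 8 samples, which leaves 4 residual degrees of freedom, with TMM scaling and the robust quasi-likelihood F test. Adjusted p-values are Benjamini-Hochberg values over all 15385 genes, called under 0.05. The SE is the log2 fold change divided by the square root of F. DESeq2 1.42.0, other scalings and filters, 10 separate libraries, a replicate block, a fit of only the PD fluid groups and the omission of each library were the alternatives. The procedure was tested on simulated data in which all samples had a spread taken from the fit. Such data cannot check the spread assumed for the lone Mr1-/- PD fluid sample.

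The comparison, gene lists and tests were chosen with earlier results of these data known. Named genes are Mr1 and Alb, the 10 higher and 10 lower genes with the smallest p and the 8 with the largest fold change in each direction (mean CPM of at least 5, outside the Mr1+/+ range, unadjusted p under 0.05), up to 5 members of each list and 20 fixed genes. Chosen after their values were seen were Cd79a, Ttr, Cyp3a11, Fgg, Cyp2e1, Bach2, Cd8a, Cdk1, Mcm3, Pcna, Kdm5d, Ddx3y, Uty, Cxcl1, Per3, Arntl, Lep, Scd1, Fasn, Cpt1a, Timp1, Tgfb3, Tgfbr2, Skil, Ski, Smad6, Bambi, Ccl3, Ccl4, Ccl8, Cxcl5, Kdr, Saa3, Upk3b and the genes in the closing observations. Some genes that the rule names are not reported here.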

Additional observations from a re-analysis of the deposited data

How the results depend on the processing

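The count of 2 genes called under PD fluid differed between settings. With 10 separate libraries it was 3400, with DESeq2 1031, with only the 2 PD fluid groups 561, and with no filter or a stricter filter on low counts 7 each. The interaction count of 0 became 1490 with 10 separate libraries and 472 with DESeq2. With the replicate number as a block (replicate block, 10 separate libraries) the counts were 2428 and 1915, but same-numbered libraries of different groups deviated with correlations of -0.13 to 0.15, so the numbers give no sign of pairing. Leaving out each library in turn gave 0 to 33 genes for PD fluid and 0 to 1 for the interaction. The PD fluid count was 0 without Mr1+/+ PD fluid replicate 2 (2206 genes at an unadjusted p under 0.05) or replicate 3 (1768), 3 without replicate 1 and 33 without Mr1+/+ PBS replicate 3, and the interaction count was 1 without Mr1-/- PBS replicate 1. Among 129 of the genes named, 126 kept the sign of their log2 fold change under every alternative run for them. The stricter filter left 6 of the 129 untested (Ccl3, Ccl4, Chil3, Il6, Ltf and S100a9). The log2 fold change of Ski turned to 0.00085 with library totals as the only scaling. The log2 fold change of Msln turned to -0.062 with the replicate block and ranged from -0.33 to 0.89 when single libraries were left out (-0.24 without Mr1+/+ PD fluid replicate 3, -0.13 without Mr1-/- PD fluid replicate 1). That of Tnf turned to -0.051 with the block and ranged from -0.24 to 0.27 when single libraries were left out. The cause of these shifts was not tested. With 1 Mr1-/- sample under PD fluid, its spread is assumed from the other groups.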

Other observations

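Beyond the liver list, further genes known as products of hepatocytes were among the higher genes with the smallest p, and they were chosen here after their values were seen. Mug1, a protease inhibitor of mouse plasma, and Mup20, a major urinary protein, were at 0 CPM in all 6 Mr1+/+ libraries. They thus met the count filter only through the Mr1-/- libraries. In the Mr1-/- PD fluid libraries Mug1 was at 9.66 and 11.3 CPM and Mup20 at 8.11 and 7.41 CPM, and in the Mr1-/- PBS libraries they were at 9.32 and 7.51 CPM and at 6.66 and 5.28 CPM. The haemopexin gene Hpx was at 0.43, 0.13 and 0.32 CPM in Mr1+/+ and at 6.5 and 5.6 CPM in Mr1-/- with PD fluid, and the prothrombin gene F2 at 0.25, 0.27 and 0.26 CPM against 3.40 and 4.06. In all 4 genes every Mr1-/- library lay above every Mr1+/+ library.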
